A study of Homo sapiens with 18 samples.

Results

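The repeat copies of the histone gene cluster on the short arm of human chromosome 6 were followed through treatment with the MDM2 inhibitor Nutlin or the antimetabolite 5-fluorouracil (5-FU). A copy belonged to the set when its start and end lay within chr6:26000000-28900000 (hg19, positions from the tables' row names) and its name did not begin with tRNA-. The rule was met by 3093 of 2404193 copies for 5-FU and by 2692 of 1996647 for Nutlin, with 2572 in both tables. The interval was chosen by position, and selected on the fall of 1 member: the LTR10B1 copy at 27841261, which lies at a histone H4 gene, was low after 5-FU and Nutlin in these same libraries, so the values of that copy are given as a description with no test and it is left out of the counts of members called.

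The RNA was stranded total RNA of IMR90 cells, human lung fibroblasts kept as an established line. There were 18 samples, 2 in each of 9 groups. Nutlin was given at 5 µM for 6 h and 5-FU at 375 µM for 6, 12 or 24 h, and each of these 4 drug groups had its own 2 DMSO samples. The last group was untreated and had fresh medium 12 h before RNA extraction. All groups are of 1 cell line, and the labels do not say that the 2 samples of a group came from separate cultures, so p-values measure only the spread between these samples. The tables hold repeat copies and no genes, so neither the cell line nor the histone genes could be checked by marker genes.

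The replication-dependent histone genes are copied into RNA mainly while DNA is made, and their short transcripts end in a stem-loop in place of a poly(A) tail, so that total RNA libraries capture them. Nutlin keeps MDM2 from binding p53, and p53 arrests the cell cycle through its target genes. 5-FU blocks thymidylate synthase and is also built into RNA and DNA. In bulk RNA, fewer cells in S phase and less RNA per cell cannot be told apart. Alu, L1, LTR and DNA elements are dispersed repeats, and a read in a copy may come from the copy's own promoter or from a longer transcript that runs through it.

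In RefSeq's gene order on GRCh38.p14, the histone genes of this chromosome fall into 3 groups of 32, 5 and 16, with 12 histone H4 genes in all. The first group lies before BTN3A2, the first of the butyrophilin genes, and the third lies after ZNF184. H4 genes share a promoter element next to the TATA box, and this stretch is shown for 5 H4 genes because the LTR10B1 copy lies at a gene of this kind. No member was matched to a named gene, since no hg19 annotation was used here. Sequences are from RefSeq (GRCh38.p14), 5′ to 3′ on the gene's own strand. Capitals mark GGTCCG and TATAA, and all lie before the start site. The stretch of H4C9 has GGTCCG alone, and the TATAA of that promoter lies 239 bases before the start, outside it.
H4C5 (plus strand, chr6:26204548-26204597): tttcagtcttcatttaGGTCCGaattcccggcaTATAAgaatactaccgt
H4C9 (plus strand, chr6:27139220-27139269): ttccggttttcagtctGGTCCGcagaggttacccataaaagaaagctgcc
H4C11 (plus strand, chr6:27824029-27824078): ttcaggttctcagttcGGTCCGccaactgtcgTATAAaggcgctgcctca
H4C12 (minus strand, chr6:27831574-27831623): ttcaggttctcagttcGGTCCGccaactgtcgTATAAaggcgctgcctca
H4C13 (minus strand, chr6:27873546-27873595): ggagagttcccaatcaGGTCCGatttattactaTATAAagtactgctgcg

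H4C5 is from the first group, H4C9 from the second, and H4C11, H4C12 and H4C13 from the third. H4C11 and H4C12 have the same letters here although they lie on opposite strands. In windows of 250 bases before to 50 after the start, searched on both strands, GGTCCG was in 9 of the 10 H4 promoters given, in 1 of 42 promoters of the other histone genes and in 11.3% of 35116 promoters. TATAA was in 10 of 10, 40 of 42 and 20.4%. CCAAT, which overlaps neither, was in 3 of 10, 42 of 42 and 34.6%. These matches describe letters only.

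The members carried 435 repeat names and were 12 to 7219 bases long, with a median of 292. Over both tables, 1562 were Alu, 573 LTR elements, 447 L1, 366 MIR and L2, 240 DNA transposons, 7 SVA, 9 small structural RNAs and 9 of other kinds. A count in at least 1 library was found for 1910 members (61.8%) with the 5-FU libraries and 1267 (47.1%) with those of Nutlin. Counts were concentrated in few copies. After the low-count filter, 156 members were tested for 5-FU and 82 for Nutlin, and these held 81.6% and 76.5% of the members' counts. The other 1754 and 1185 members with counts were too low to test and 1183 and 1425 were at 0 in every library. The member with the highest level in both tables, an L1ME3E copy at 26546483, alone held 15.1% of the members' counts with 5-FU's libraries and 18.0% with Nutlin's.

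The 14 libraries of the 5-FU table had 2412334 to 6290320 counts, with 3551 to 10246 on members. Those of the Nutlin table were deeper, at 9109885 to 11880265 counts with 5033 to 7302 on members. In the Nutlin table, 1 copy outside the interval took 60.4% to 66.3% of each library. Levels are therefore CPM, counts scaled to a common library size by TMM, which sets libraries against each other by the bulk of tested copies, and they were compared only within a table. In the Nutlin table both untreated columns held the same counts and were used as 1 sample.

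The LTR10B1 copy spans 38 bases, chr6:27841261-27841298, and is a fragment of a long terminal repeat of an endogenous retrovirus. After Nutlin it was at 13.8 and 16.8 CPM, against 32.4 and 34.1 CPM in its DMSO libraries and 31.1 CPM in the untreated sample. Both Nutlin libraries lay below all others of that table. The log2 fold change against DMSO was -1.13 ± 0.14 (SE from the fit to all libraries of the table, n = 2 against 2).

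In the 5-FU table, the DMSO libraries of the LTR10B1 copy differed between time points. They were at 26.4 and 41.8 CPM at 6 h, 17.8 and 14.9 CPM at 12 h, and 69.1 and 53.2 CPM at 24 h. The untreated libraries were at 80.3 and 66.9 CPM, and the 12 h DMSO libraries were the lowest of the controls.

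With 5-FU the LTR10B1 copy was at 27.6 and 28.9 CPM at 6 h, 20.3 and 20.6 CPM at 12 h, and 12.0 and 3.25 CPM at 24 h. At 6 h the groups overlapped, at 12 h both drug libraries were just above their DMSO libraries, and at 24 h both were below every other library of the table. The log2 fold changes against the DMSO libraries of the same time were -0.27 ± 0.33 at 6 h, 0.32 ± 0.37 at 12 h and -3.06 ± 0.37 at 24 h (SE, n = 2 against 2 each). The 12 h value rests on its control: against the DMSO libraries of 6 h and 24 h it was -1.16. Without 5-FU 24 h replicate 2 the 24 h value was -2.36, and without replicate 1 it was -4.17.

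**Figure D1:**
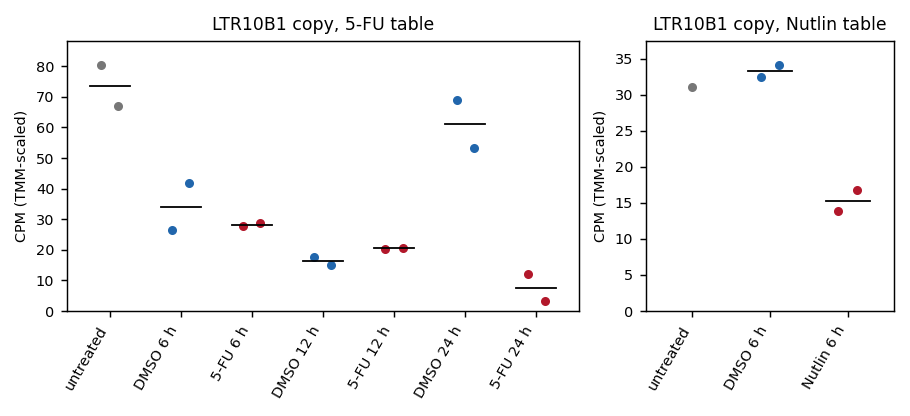
Level of the LTR10B1 copy in CPM after TMM scaling, 1 point per library, with a black line at the mean of 2 libraries (left 5-FU table, right Nutlin table; grey untreated, blue DMSO, red drug). The 24 h 5-FU libraries at 12.0 and 3.25 CPM are the lowest of the left panel, and the Nutlin libraries at 13.8 and 16.8 CPM are the lowest of the right.

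Other copies named LTR10B1 lie elsewhere in the genome, and those tested were longer. On chromosome 20, the copy at 47903608 had a log2 fold change of -2.03 ± 0.49 after Nutlin and -1.65 ± 0.39 after 5-FU for 24 h. The copy at 47897648 had -1.47 ± 0.48 and -0.94 ± 0.32. At 6 h of 5-FU they were at -1.01 ± 0.42 and 0.24 ± 0.34, and at 12 h, where the chromosome 6 copy was at 0.32, at -1.81 ± 0.50 and -1.19 ± 0.39. A copy on chromosome 15, at 49917732, was tested in the 5-FU table only and had -0.31 ± 0.70 at 24 h. The 2 chromosome 20 copies thus had negative values after Nutlin and at 12 h and 24 h of 5-FU, with both signs at 6 h; the difference between the copies was not tested.

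The 3 members whose level followed the LTR10B1 copy most closely over the 14 libraries of the 5-FU table (Pearson r of log2 CPM, 155 members compared) were an AluSg copy at 26198557 with r = 0.75, a MER51D copy at 27804813 with r = 0.66, and an LTR33 copy at 26445480 with r = 0.63. The 14 points share their treatments and scaling, so r is a description. AluSg 26198557 lies in the first histone window and MER51D 27804813, an LTR element, lies in the third, with 35816 bases between it and LTR10B1. The median r over the 155 was -0.09, and the lowest, -0.84, belonged to a MIRb copy at 26139020.

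MER51D 27804813 was at 7.30 and 6.19 CPM in DMSO at 24 h and 3.94 and 1.24 CPM with 5-FU, and the groups did not overlap. In the Nutlin table it was at 2.05 and 1.25 CPM in DMSO and 0.441 and 0.483 CPM with Nutlin. The log2 fold changes were -1.44 ± 0.51 (edgeR adjusted p = 0.13) and -1.82 ± 0.58 (edgeR adjusted p = 0.073), so neither passed the threshold of 0.05. At 12 h of 5-FU, against the low 12 h DMSO libraries, it was called higher, by 2.27 ± 0.70 (edgeR adjusted p = 0.044). MER51D 27804813 was named for following LTR10B1 over these same 5-FU and control libraries. Its values in the 5-FU table are therefore a description and no separate support. In the Nutlin table it passed the low-count filter only through its DMSO libraries.

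To see whether neighbours moved alike, the interval was divided by position into 3 histone windows and the stretches between them, and CPM were summed over all members of a window. The third histone window (27700000 to 27900000, 246 members) was lower in the same drug groups as LTR10B1. It was at 105 and 88.4 CPM in DMSO at 24 h and 40.3 and 27.7 CPM with 5-FU, and at 43.9 and 43.8 CPM in DMSO and 23.5 and 23.9 CPM with Nutlin. LTR10B1 made up most of the sum in these DMSO libraries and with Nutlin, but with 5-FU at 24 h only 12.0 and 3.25 CPM of it. Without LTR10B1, the window was at 35.9 and 35.3 CPM in DMSO at 24 h against 28.3 and 24.5 CPM with 5-FU, which still did not overlap. These 24 h 5-FU values lay above the DMSO libraries of 6 h, at 16.7 and 22.1 CPM, and of 12 h. At 12 h the rest of the window was higher with 5-FU, at 21.2 and 26.7 CPM against 13.7 and 13.4 CPM in DMSO. At 6 h the groups overlapped. For Nutlin the rest of the window was at 11.4 and 9.69 CPM against 9.69 and 7.12 CPM, and the groups overlapped.

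The first histone window (26000000 to 26300000, 394 members in the 5-FU table) went the other way with 5-FU. It was at 303 and 275 CPM in DMSO at 24 h and 725 and 486 CPM with 5-FU, a ratio of means of 2.09. At 12 h it was at 299 and 298 CPM in DMSO and 524 and 490 CPM with 5-FU, and at 6 h the ratio was 1.11. Most of the 24 h difference lay in 3 abundant copies described below, AluSq2 26273744, L1ME4b 26138516 and MIRb 26139020. Without these 3, taken out after their values were seen, the other 391 members were at 182 and 171 CPM in DMSO and 223 and 172 CPM with 5-FU at 24 h, a ratio of 1.12, and the groups overlapped. The log2 ratio of these members was 0.16, and -0.02 with library size alone. At 12 h the other members were at 135 and 140 CPM in DMSO and 228 and 201 CPM with 5-FU. After Nutlin the same window was lower, at 184 and 161 CPM against 197 and 210 CPM. Without a run of 6 neighbouring copies described below, also taken out after the values were seen, it was at 146 and 127 CPM with Nutlin against 141 and 139 CPM, and the groups overlapped. The untreated libraries were lowest in this window in both tables, at 218 and 228 CPM and at 83.7 CPM.

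**Figure D2:**
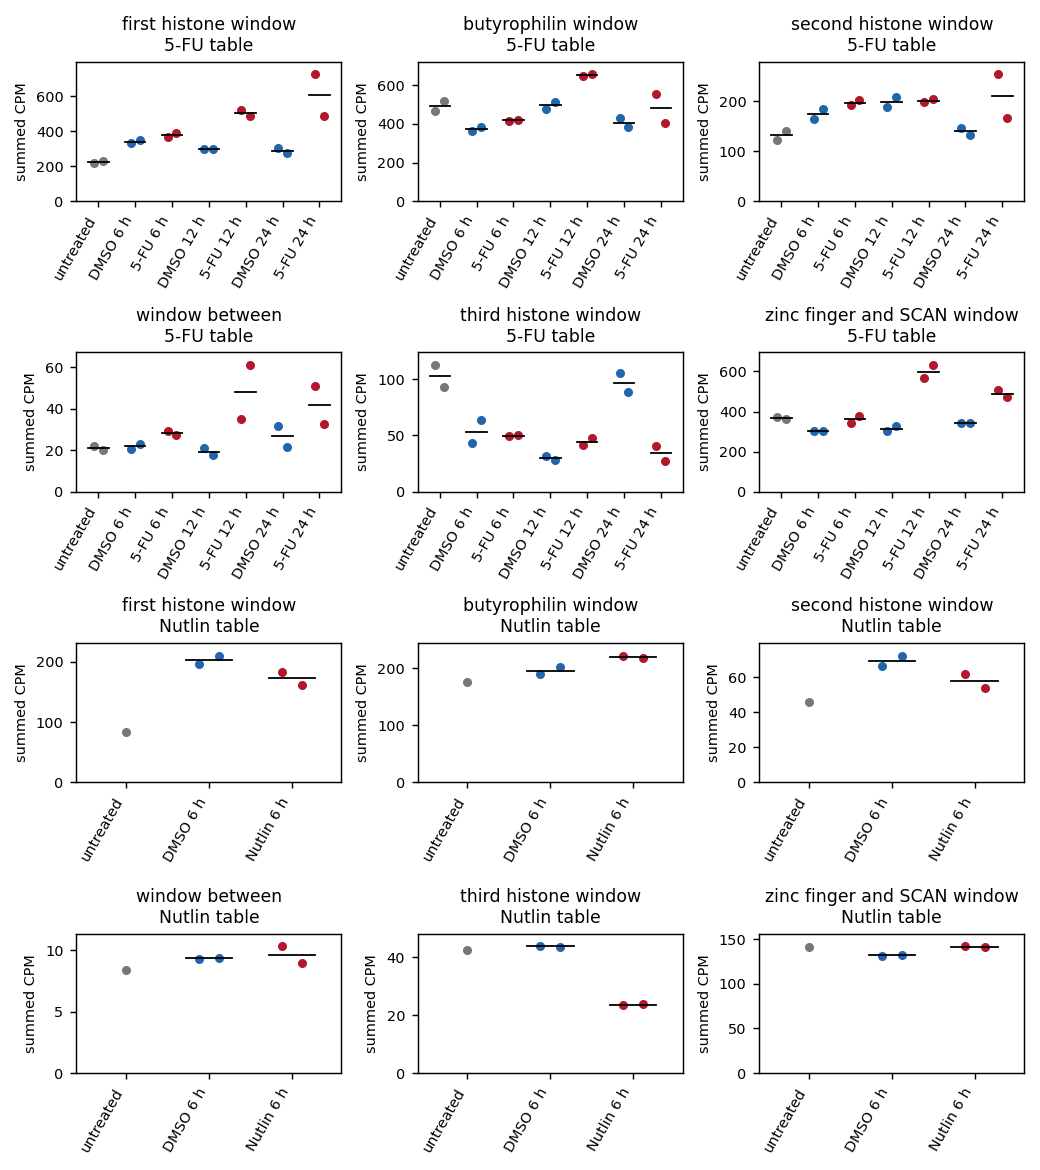
Summed CPM of all members in each of 6 windows, 1 point per library, with a line at the mean of 2 (upper 6 panels 5-FU table, lower 6 panels Nutlin table; grey untreated, blue DMSO, red drug). With 5-FU at 24 h the first histone window reached 725 and 486 CPM while the third histone window was at 40.3 and 27.7 CPM; without 3 copies the first window is at 223 and 172 CPM, against 182 and 171 CPM in DMSO, and LTR10B1 holds most of the third window's difference.

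Outside the histone windows the sums were higher with 5-FU. The zinc finger and SCAN window (27900000 to 28900000, 997 members) had ratios of 1.19 at 6 h, 1.91 at 12 h and 1.43 at 24 h, and the butyrophilin window (26300000 to 27000000, 747 members) had 1.12, 1.31 and 1.18, the last with overlapping groups. The window names give the gene families known from this part of the chromosome and were not taken from the tables. These ratios depend on the scaling: with library size alone in place of TMM, the log2 ratio of the zinc finger and SCAN window at 12 h was 0.60 in place of 0.93, and that of the butyrophilin window 0.07 in place of 0.39.

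Called here means an adjusted p under 0.05 in edgeR's quasi-likelihood test, with Benjamini-Hochberg adjustment over all copies of the table. Members named for a call also had to show no overlap between the groups compared. Non-overlap stated beside such a call is thus no separate support. After Nutlin, 2 members were called higher and 8 lower of the 81 tested besides LTR10B1 (12.3%), where 9.57% of all tested copies were called, 5.36% higher and 4.21% lower. The median log2 fold change was -0.13 over the 82 members and 0.007 over all copies. The members' median was 0.02 without DMSO replicate 2, where only 64 members were still tested, and -0.28 with library size alone. Its sign is therefore not secure. The part of the lost library and that of the changed set of members were not separated. Because the interval was proposed with these results in view, nothing is read from the share.

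Of the 8 lower members, 6 lay in the first histone window, 4 of them in 1 run of neighbours. The median log2 fold change of the 34 members tested in the 3 histone windows besides LTR10B1 was -0.56, and 6 of the 34 were called, all lower, beside the 4.21% lower over all copies. Without the run the median of the other 28 was -0.30 and 2 were called. In the butyrophilin window the median of 18 tested members was 0.16. With DESeq2 in place of edgeR, 1 member besides LTR10B1 was called, the MIRc copy at 26113724, lower. The share of all copies called by DESeq2 is not given here.

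A run of 6 neighbouring copies within 2 kb of the first histone window, from 26113431 to 26115407, was lower after Nutlin in all 6. The run was marked out after the values were seen. The tested MLT1J copy at 26112890, 243 bases before it, is not counted in it: that copy was at 1.30 and 1.04 CPM in DMSO and 1.23 and 0.483 CPM with Nutlin, overlapping, with a log2 fold change of -0.39 (edgeR adjusted p = 0.79). Its copies are fragments of old families: 2 L1M5, 2 MIRc, 1 MLT1B and 1 L4_C_Mam. The MIRc copy at 26113724 was at 13.3 and 18.3 CPM in DMSO and 7.67 and 8.45 CPM with Nutlin, with 3.45 CPM in the untreated sample. Both Nutlin libraries lay between the untreated sample and DMSO. It fell by 0.98 ± 0.20 on the log2 scale (edgeR adjusted p = 0.011).

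MLT1B 26113871, an LTR element that directly follows it, was at 15.7 and 20.4 CPM in DMSO and 11.3 and 11.0 CPM with Nutlin, and fell by 0.70 ± 0.18 (edgeR adjusted p = 0.030). L1M5 26114552 was at 6.37 and 6.67 CPM and then 3.44 and 2.29 CPM, and fell by 1.16 ± 0.29 (edgeR adjusted p = 0.027). L4_C_Mam 26115279 was at 7.67 and 10.5 CPM and then 5.46 and 3.86 CPM, and fell by 0.94 ± 0.26 (edgeR adjusted p = 0.040). The Nutlin and DMSO libraries of these 3 did not overlap. The remaining 2 of the run, L1M5 26113431 and the MIRc copy at 26114313, had -0.68 and -0.62 and did not pass (edgeR adjusted p = 0.094 and 0.32).

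Neighbouring copies can be covered by 1 transcript, so the 6 are not independent. The call of MLT1B 26113871 was lost without DMSO replicate 2 or Nutlin replicate 1, that of L1M5 26114552 without Nutlin replicate 2 and that of L4_C_Mam 26115279 without DMSO replicate 2 or Nutlin replicate 2, and the call of MIRc 26113724 held without any 1 library. With 5-FU at 24 h, their log2 fold changes ranged from -0.86 to 0.66.

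**Figure D3:**
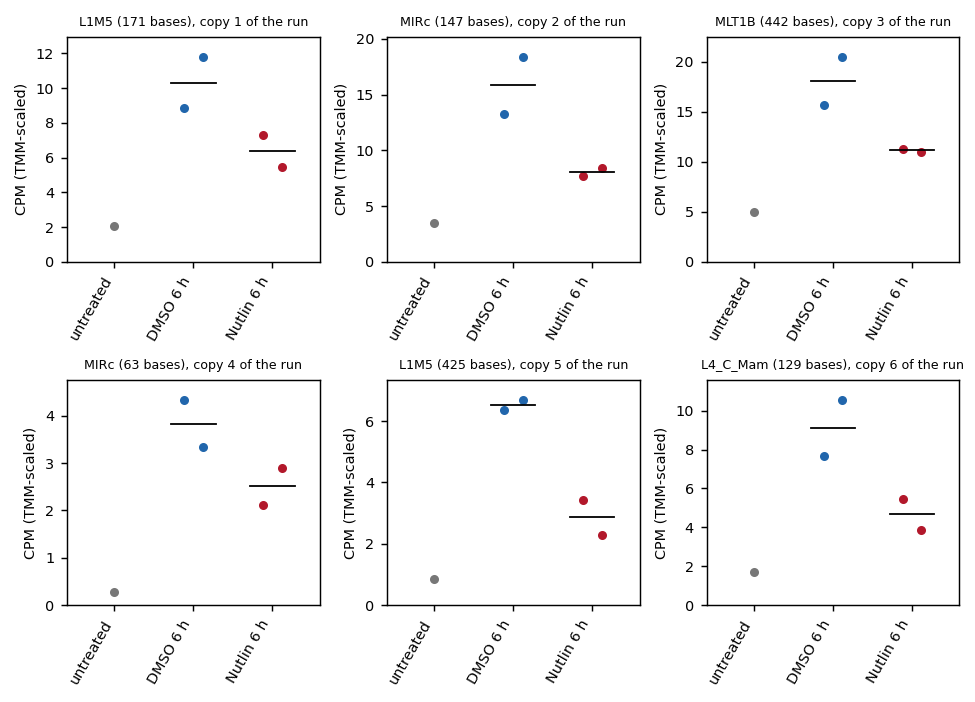
Level of the 6 neighbouring copies at 26113431 to 26115407 in the Nutlin table, in CPM after TMM scaling, 1 point per library, with a line at the mean of 2 (grey untreated, blue DMSO, red Nutlin). In each panel both Nutlin libraries lie below both DMSO libraries and above the untreated sample.

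In the same window, AluSg 26198557, the member most like LTR10B1 in the 5-FU table, was at 2.27 and 1.98 CPM in DMSO and 0.441 and 0.483 CPM with Nutlin. It fell by 2.18 ± 0.53 (edgeR adjusted p = 0.024). Its call was lost with DESeq2 and without the low-count filter. Without either DMSO replicate it no longer passed the filter, so its call could not be checked there. It entered the test only through its DMSO libraries, where it was high, so the call is no separate support for a fall. AluJr 26215851 was at 4.32 and 5.63 CPM and then 1.32 and 2.29 CPM, and fell by 1.49 ± 0.37 (edgeR adjusted p = 0.026); its call was lost without Nutlin replicate 1. The drug and DMSO libraries did not overlap for these 2 Alu copies, which are short non-autonomous elements.

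In the zinc finger and SCAN window, MLT1B 28196022 was at 3.89 and 4.90 CPM in DMSO and 1.41 and 1.45 CPM with Nutlin, and fell by 1.61 ± 0.36 (edgeR adjusted p = 0.014). A MIRc copy at 28357450 fell by 1.95 ± 0.54 (edgeR adjusted p = 0.042). It had 30 and 20 counts in DMSO and 4 and 9 with Nutlin. This copy also passed the filter only through its DMSO libraries, so its call is no separate support for a fall. The 2 members that rose were both pieces of Tigger1, a DNA transposon, on either side of an AluJb copy.

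Tigger1 28391868 was at 6.91 and 5.63 CPM in DMSO and 11.3 and 12.1 CPM with Nutlin, and rose by 0.89 ± 0.20 (edgeR adjusted p = 0.016). Tigger1 28393383 was at 4.97 and 3.13 CPM and then 9.25 and 8.69 CPM, and rose by 1.15 ± 0.25 (edgeR adjusted p = 0.014). Both Nutlin libraries lay above both DMSO libraries in each, and both calls were lost without DMSO replicate 2, at 0.64 and 0.74.

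At 6 h of 5-FU, 1 of the 155 members besides LTR10B1 was called, higher, against 0.101% of all copies, 0.0896% higher. This was AluY 28863598, in the zinc finger and SCAN window. At 12 h, 19 were called, all higher (12.3%), against 9.71% of all copies, 5.44% higher and 4.27% lower. At 24 h, 8 were called, all higher (5.16%), against 4.23% of all copies, 2.42% higher and 1.82% lower. The median log2 fold changes of the 156 members were 0.24, 0.60 and 0.31, and those of all copies were -0.001, -0.04 and 0.00. With library size alone the members' medians at 12 h and 24 h were 0.28 and 0.15. Without 5-FU 6 h replicate 2 the 6 h median was 0.10 over the 137 members still tested. Without 5-FU 24 h replicate 1 the 24 h median was 0.11 over 134 members.

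The count at 12 h depends on libraries and scaling. It was 5 without DMSO 12 h replicate 1, 6 without DMSO 12 h replicate 2, 12 without 5-FU 12 h replicate 1 and 8 without 5-FU 12 h replicate 2, all of them higher. With library size alone it was 10 higher and 3 lower, where 2056 of all 63602 tested copies were higher and 4703 lower. The median log2 fold change of all copies then shifted to -0.36. With the DMSO libraries of 6 h and 24 h as control, 38 were higher and 4 lower. The share of all copies called with that control, or with 1 library left out, is not set beside the counts of this paragraph. Nothing is therefore read from them about the members. The count at 24 h also moved with the library left out, and without 5-FU 24 h replicate 1 the called members were not all higher.

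**Figure D4:**
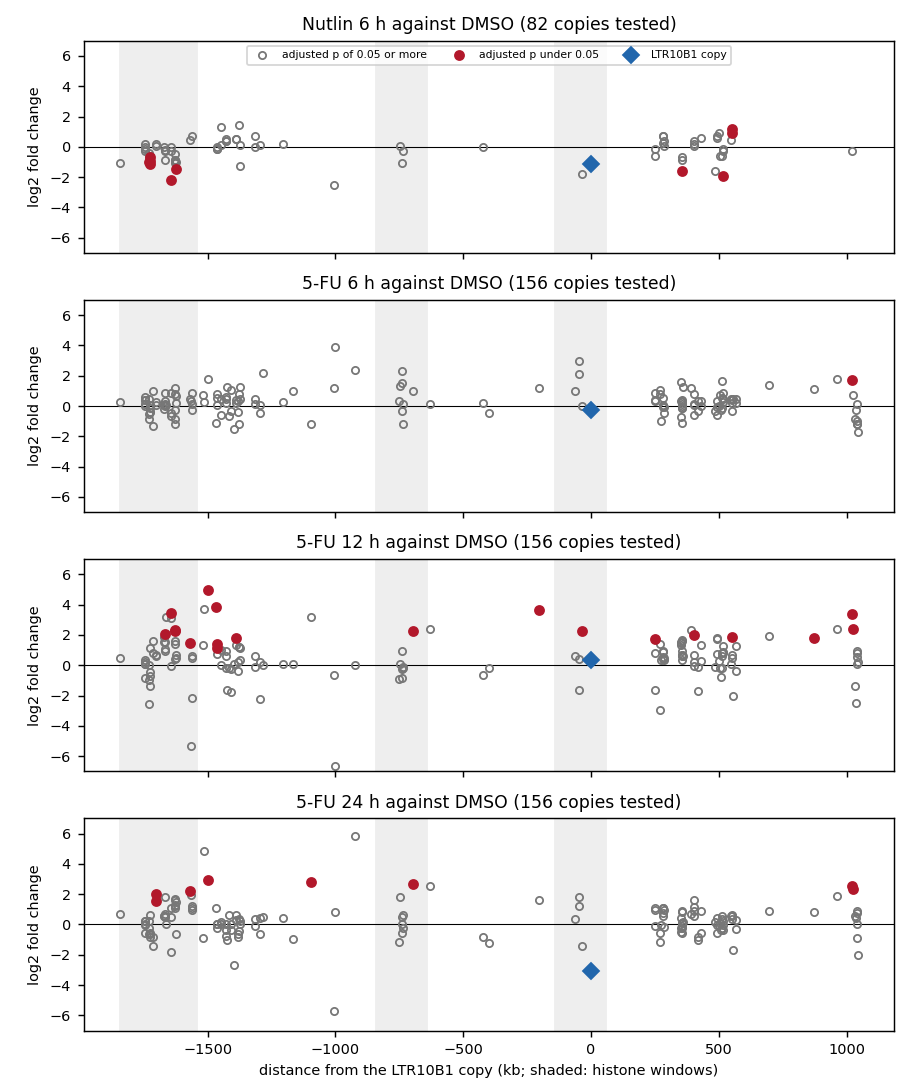
Log2 fold change of every tested member against its distance from the LTR10B1 copy in kb, for Nutlin (82 members) and 5-FU at 6, 12 and 24 h (156 members); red filled points have an edgeR adjusted p under 0.05, the blue diamond is the LTR10B1 copy, and grey bands mark the 3 histone windows. At 12 h the 19 called members are all above 0 and spread over the interval, and at 24 h the 8 called members are all above 0, with the LTR10B1 copy at -3.06.

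Alu copies made up 13 of the 19 calls at 12 h, from 48 tested Alu members, whose median log2 fold change was 1.39. Over all 17170 Alu copies tested in the table the median was 0.40 and 7.93% were called higher. At 24 h, 5 of the 48 were called higher with a median of 0.45, and over all Alu copies the median was -0.001 and 2.57% were called higher. How reads shared by near-identical Alu copies were placed is not stated, which leaves the position of each Alu change uncertain.

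AluY 28863598 was at 5.41 and 17.6 CPM in DMSO at 6 h and 34.7 and 42.4 CPM with 5-FU. At 12 h it was at 12.2 and 16.8 CPM in DMSO and 132 and 169 CPM with 5-FU, and at 24 h at 16.9 and 15.7 CPM and then 108 and 82.1 CPM. All 6 drug libraries lay above all 6 DMSO libraries and the untreated ones. It rose by 1.74 ± 0.33, 3.37 ± 0.35 and 2.55 ± 0.33 on the log2 scale (edgeR adjusted p = 0.038, 3.3e-06 and 4.9e-05). The 6 h call was lost without DMSO 6 h replicate 1, at 1.08, without either 5-FU 6 h replicate, and with library size alone (edgeR adjusted p = 0.065).

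AluSg 28865886 is the next tested member, 1987 bases further on. It was at 2.59 and 4.59 CPM in DMSO and 14.4 and 22.9 CPM with 5-FU at 12 h, and at 3.56 and 2.75 CPM and then 17.1 and 14.4 CPM at 24 h. The drug and DMSO libraries did not overlap at either time. It rose by 2.37 ± 0.47 and 2.31 ± 0.43 (edgeR adjusted p = 0.0027 and 0.0022), calls that were lost without DMSO 12 h replicate 1 and without DMSO 24 h replicate 2.

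Other Alu copies called at both 12 h and 24 h lay far from these. AluSx 27144349, in the second histone window, was at 1.12 and 1.20 CPM in DMSO and 10.2 and 5.11 CPM with 5-FU at 24 h, and rose by 2.28 ± 0.53 at 12 h and 2.66 ± 0.53 at 24 h (edgeR adjusted p = 0.0089 and 0.0040). AluSg 26341738, in the butyrophilin window, was at 0.936 and 0.516 CPM and then 5.56 and 5.89 CPM at 24 h, and rose by 2.94 ± 0.64 (edgeR adjusted p = 0.0085). At 12 h AluSg 26341738 had 0 and 1 counts (0 and 0.382 CPM) in DMSO and 6.17 and 7.55 CPM with 5-FU, and rose by 4.99 ± 0.93 (edgeR adjusted p = 0.0016). With DMSO this near 0 the size of that change is loose: it was 4.01 without DMSO 12 h replicate 1, 7.95 without DMSO 12 h replicate 2 and 3.32 against the DMSO libraries of 6 h and 24 h. Both 24 h calls were lost without either DMSO 24 h replicate, and the 12 h call of AluSx 27144349 without either DMSO 12 h replicate or 5-FU 12 h replicate 2. At 12 h, AluSz 26196129 rose by 3.47 ± 0.71 and AluSz 27639783 by 3.65 ± 0.70 (edgeR adjusted p = 0.0036 and 0.0022), both lost without DMSO 12 h replicate 1.

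AluSq2 26273744, in the first histone window, was among the most abundant members. It was at 52.0 and 51.6 CPM in DMSO at 6 h and 73.5 and 68.6 CPM with 5-FU, and at 33.0 and 36.7 CPM and then 75.3 and 115 CPM at 12 h. At 24 h it was at 37.1 and 33.7 CPM in DMSO and 196 and 135 CPM with 5-FU, above every other library. It rose by 1.45 ± 0.25 at 12 h and 2.22 ± 0.24 at 24 h (edgeR adjusted p = 0.00082 and 6.4e-06). The 24 h effect of 5-FU differed from the 6 h effect at 2 of the 155 members besides LTR10B1, both higher, against 0.385% of all copies, 0.0865% higher and 0.299% lower. For AluSq2 26273744 the 24 h effect exceeded the 6 h effect by 1.77 ± 0.33 (edgeR adjusted p = 0.014), a call lost without either DMSO 24 h or either 5-FU 6 h replicate.

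L1ME4b 26138516 and MIRb 26139020 are neighbours in the same window, 93 bases apart. L1ME4b 26138516 was at 66.3 and 56.3 CPM in DMSO and 227 and 125 CPM with 5-FU at 24 h, and rose by 1.52 ± 0.24 (edgeR adjusted p = 0.00056). MIRb 26139020 was at 17.6 and 14.5 CPM and then 78.8 and 53.6 CPM, and rose by 2.04 ± 0.24 (edgeR adjusted p = 2.0e-05). The drug libraries lay above all controls for both. For MIRb 26139020 the 24 h effect exceeded the 6 h effect by 2.00 ± 0.34 (edgeR adjusted p = 0.0054), and the call held without any 1 library.

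**Figure D5:**
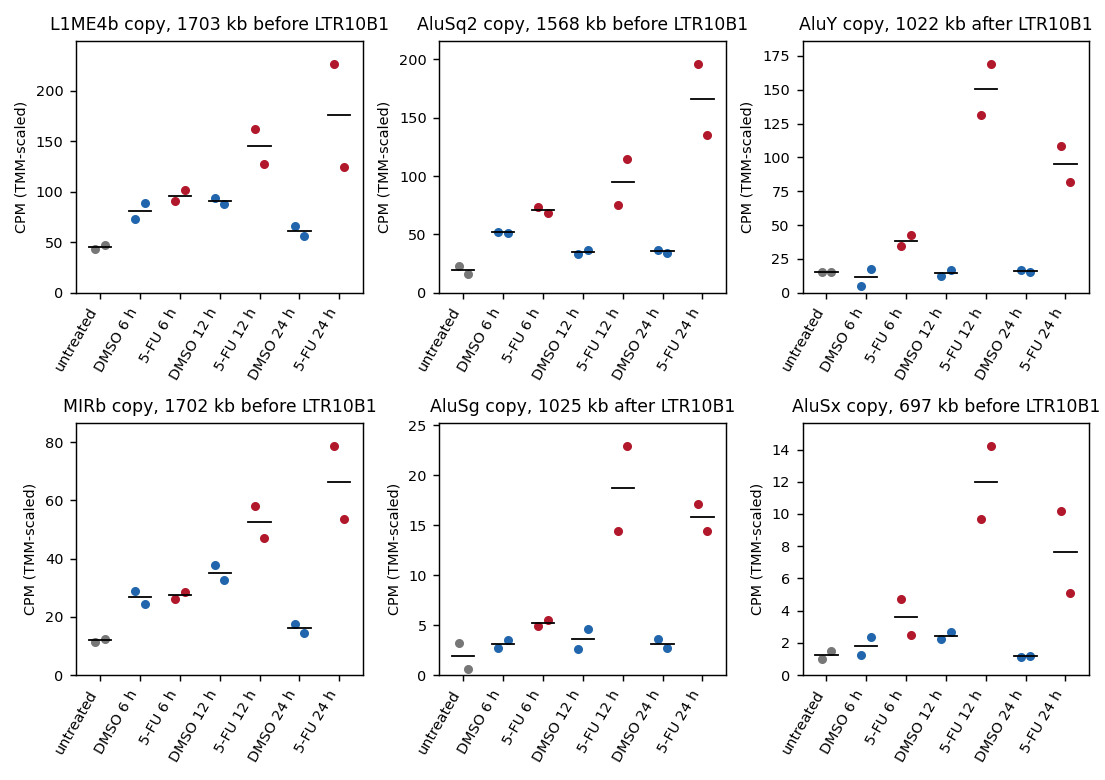
Level of 6 members in the 5-FU table, in CPM after TMM scaling, 1 point per library, with a line at the mean of 2 (grey untreated, blue DMSO, red 5-FU). The AluY copy is highest at 12 h, at 132 and 169 CPM, while the means of AluSq2, L1ME4b and MIRb are highest at 24 h.

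The remaining named calls were of members at low or middle levels. L1PA2 26743922, a young L1, was at 1.12 and 0.344 CPM in DMSO and 5.79 and 4.65 CPM with 5-FU at 24 h, and rose by 2.80 ± 0.73 (edgeR adjusted p = 0.030), a call lost without any 1 of the 4 libraries. Its DMSO libraries at 6 h were at 3.33 and 6.25 CPM. MER1A 28715649, a DNA transposon, was at 6.30 and 2.68 CPM and then 15.9 and 15.4 CPM at 12 h, and rose by 1.79 ± 0.41 (edgeR adjusted p = 0.0087), lost without DMSO 12 h replicate 2.

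The member with the highest level, L1ME3E 26546483, did not pass the test. It was at 187 and 169 CPM in DMSO and 294 and 188 CPM with 5-FU at 24 h, a log2 fold change of 0.43 ± 0.21 (edgeR adjusted p = 0.30). LTR48B 27106003, which holds most of the counts of the second histone window, was at 120 and 106 CPM and then 213 and 140 CPM, at 0.64 ± 0.21 (edgeR adjusted p = 0.098). Both 5-FU libraries lay above both DMSO libraries for these 2 copies. After Nutlin they were at 0.10 ± 0.10 and -0.28 ± 0.12 (edgeR adjusted p = 0.58 and 0.16).

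The 3 DMSO groups of the 5-FU table were also set against the untreated libraries. This comparison uses the same DMSO libraries as those of the drug, so its values stand beside them with no overlap drawn. Of the 155 members besides LTR10B1, 3 were higher in DMSO and 2 lower, against 1.66% of all copies, 0.643% higher and 1.02% lower. Under unadjusted library sizes these counts became 3 and 4, where 389 of all 63602 tested copies were higher and 1614 lower. Without untreated replicate 1 or 2 each of the 5 calls was lost, without DMSO 12 h replicate 2 the count was 3, and with the DMSO libraries of 6 h and 24 h only it was also 3.

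The 3 higher members were all in the first histone window. MIRb 26139020 was at 11.3 and 12.6 CPM untreated and 14.5 to 37.8 CPM over the 6 DMSO libraries, and was higher by 1.05 ± 0.22 (edgeR adjusted p = 0.017). AluSq2 26273744 was at 22.8 and 16.4 CPM and then 33.0 to 52.0 CPM, higher by 1.02 ± 0.22 (edgeR adjusted p = 0.018). L1M5 26173565 was at 0.751 and 0.299 CPM and then 2.08 to 6.12 CPM, higher by 2.51 ± 0.63 (edgeR adjusted p = 0.042). No DMSO library of the 5-FU table overlapped the untreated ones for these members. In the Nutlin table, with 1 untreated sample, AluSq2 26273744 went the other way, at 8.59 CPM untreated and 2.81 and 2.81 CPM in DMSO. MIRb 26139020 was higher in DMSO there too, at 12.1 and 12.7 CPM against 4.20 CPM. So was L1M5 26173565, at 2.81 and 3.13 CPM against 0.280 CPM. The call of L1M5 26173565 was also lost without replicate 2 of any DMSO group.

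The 2 lower members were MIR copies in the butyrophilin window. MIR 26452792 was at 8.26 and 10.8 CPM untreated and 2.22 to 3.78 CPM in DMSO, a log2 difference of -1.63 ± 0.32 (edgeR adjusted p = 0.0089). MIR 26377514 was at 14.5 and 17.6 CPM and then 5.00 to 8.43 CPM, a log2 difference of -1.14 ± 0.25 (edgeR adjusted p = 0.021), a call also lost without either DMSO 12 h replicate. For LTR10B1, 1 DMSO library of 24 h, at 69.1 CPM, lay within the untreated range of 66.9 to 80.3 CPM, the other 5 DMSO libraries lay below it, and the log2 difference was -1.18 ± 0.26. In the Nutlin table neither MIR copy was lower in both DMSO libraries than in the untreated sample. MIR 26452792 was at 3.08 CPM untreated and 3.46 and 2.29 CPM in DMSO. MIR 26377514 was at 5.41 CPM untreated and 3.78 and 5.84 CPM in DMSO.

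Beside the neighbouring stretches of the same length, the tested members were compared by counts alone. At 12 h of 5-FU, 3 of 46 copies before the interval were called, all higher, and after the interval 7 of 145 were higher and 10 lower. Over all copies 9.71% were called at 12 h, 5.44% higher and 4.27% lower. After Nutlin, 1 of 24 copies before was called, higher, and 1 of 60 after, lower. Over all copies 9.57% were called after Nutlin, 5.36% higher and 4.21% lower. In the histone cluster 2 window of chromosome 1, edgeR's test called 0 of 9 copies after Nutlin, where 4 had an unadjusted p under 0.05, and 0 of 13 at 6, 12 and 24 h of 5-FU, where 0, 3 and 2 had one. Of all copies, 0.101%, 9.71% and 4.23% were called at 6, 12 and 24 h of 5-FU. An unadjusted p under 0.05 in edgeR's test was found for 5105 of all 21328 copies after Nutlin. With 5-FU it was found for 4690, 16304 and 10737 of all 63602 at 6, 12 and 24 h. DESeq2 was not run on that window alone. The difference between these regions and the interval was not tested.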

How the data were processed

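RNA of 18 IMR90 samples was measured per repeat copy. The deposited values are raw counts per copy in 2 tables, per the file headers, and the submitters' processing notes name hg19, Trimmomatic 0.32, cutadapt 1.10, Bowtie2, edgeR and DESeq2 without their roles. The annotation and the handling of reads that match several copies are not given in the sources used here. Members were the rows whose positions lay in the interval. Counts were tested over each whole table with edgeR 4.0.16 in R 4.3.3 (limma 3.58.1): filterByExpr, TMM on the copies kept (63602 and 21328), library sizes over all copies, 1 mean per group, glmQLFit and glmQLFTest, Benjamini-Hochberg adjustment, threshold 0.05. Levels are CPM on TMM-scaled library sizes, and likeness to LTR10B1 used log2(CPM + 0.5). Each SE was worked back from the test, as the absolute log2 fold change over the square root of the test's F. It thus uses the spread estimated over all libraries of a table, also for LTR10B1. The fit was tested on simulated data. False calls stayed within the nominal share when the spread followed the trend, but exceeded it in both tables when each copy kept its own estimated spread, so calls near the threshold are less sure than their adjusted p states. The first kind was added after the second had been run.

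Libraries held 2412334 to 6290320 counts (5-FU table) or 9109885 to 11880265 (Nutlin table). The members, windows and lists were chosen with earlier results of these data known. Named members were LTR10B1, up to 8 called and non-overlapping members in each direction and comparison by smallest p, the 10 with the highest mean CPM in each table, the 5 highest in each histone window, and the 3 most like LTR10B1. Names beyond this rule, which are L1M5 26113431, MLT1J 26112890, the MIRc copies at 26114313 and 28357450 and the AluJb copy, were chosen after their values were seen. The comparisons were each drug group against its DMSO group, the 24 h effect of 5-FU minus the 6 h effect, and DMSO against untreated. Alternatives were RLE factors, library size alone, DESeq2 1.42.0, no filter, no structural RNA, only the libraries compared, a replicate block, other DMSO controls and each library left out. With a library left out, the filter was run again on the groups that still had 2 libraries. The set of tested members therefore changed as well. Counts without LTR10B1 and the sums of the first histone window without named copies were added after seeing the data. One of the identical untreated columns of the Nutlin table was left out. No hg19 genome was used here, so members' own sequences are not shown.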

Additional observations from a re-analysis of the deposited data

Results flagged for a closer look

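At 2 members besides LTR10B1 the effect of 5-FU at 24 h differed from that at 6 h in a test of the difference itself (edgeR, adjusted over all tested copies), where 0.385% of all tested copies were called, 0.0865% higher and 0.299% lower. For MIRb 26139020 the difference was 2.00 on the log2 scale. For AluSq2 26273744 it was 1.77. For LTR10B1 it was -2.79, given with no test because this copy led to the choice of the interval. Each time point has its own DMSO libraries, which differed for LTR10B1 from 26.4 and 41.8 CPM at 6 h to 69.1 and 53.2 CPM at 24 h; their part in the difference was not tested.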

How the results depend on the processing

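Counts of called members here leave out LTR10B1. They were 10 after Nutlin, 1, 19 and 8 at 6, 12 and 24 h of 5-FU, 2 for 24 h minus 6 h and 5 for DMSO against untreated. The shares of all copies called are not set beside the alternative counts of this section. Nothing is therefore read from these counts about the members. The count after Nutlin was 10, and it was 1 with DESeq2 and 5 (2 higher, 3 lower) without the low-count filter. At 6 h of 5-FU the count was 1, and it was 0 with library size alone, without structural RNA, with only the libraries compared, and 0 to 1 with 1 library left out. At 12 h it was 19, and 43 with the DMSO libraries of 6 h and 24 h as control, 11 without the filter, and 5 to 12 with 1 library left out. At 24 h it was 9, and 5 to 14 with 1 left out. For 24 h minus 6 h it was 3, and 2 to 4. For DMSO against untreated it was 6, and 3 without the filter, 3 with the DMSO libraries of 6 h and 24 h only (chosen after seeing the data), and 0 to 6 with 1 left out. The log2 fold change of LTR10B1 at 12 h turned from 0.32 to -1.16 against the DMSO libraries of 6 h and 24 h. Its 24 h minus 6 h difference was -2.78 with only the libraries compared and -3.89 to -2.07 with 1 left out, and its DMSO difference was -0.69 without the 12 h libraries and -1.36 to -1.06 with 1 left out. With the replicate number as a block, 8 members were called after Nutlin, 1, 15 and 8 at 6, 12 and 24 h of 5-FU, 2 for the difference and 4 for DMSO. The samples share only a number, as same-numbered deviations correlated at -0.008 in the Nutlin table and -0.11 to 0.15 over 21 pairs of groups in the 5-FU table. Library size alone shifted the median log2 fold change of all copies to -0.14 after Nutlin and to -0.36 and -0.15 at 12 and 24 h of 5-FU. Over the single named members, 333 alternative values kept their direction and call, 69 kept the direction and lost the call, and the cause was not tested. Most members have too few counts to test, and 22 of the 33 named calls were lost without at least 1 library.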
